A study of Mus musculus with 16 samples.

Results

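The 10 marker genes of 3 hippocampal subfields described here were followed through bulk hippocampal RNA-seq of 16 mice. They were chosen by name, as genes whose transcripts label one subfield: Prox1, C1ql2, Dsp and Calb1 for the dentate gyrus, Wfs1, Fibcd1 and Pou3f1 for CA1, and Pcp4, Rgs14 and Amigo2 for CA2. All 10 were found among the 54532 genes of the table, 33610 of them detected in 1 or more mice, and all 10 passed the filter on low counts in every comparison. The mice formed 4 groups of 4: WT on vehicle water, WT + NR, hTau.P301S on vehicle water and hTau.P301S + NR. NR is nicotinamide riboside, a precursor of NAD+, and was given at 6 mM in the drinking water. By the sample labels, treatment began at 12 months of age and lasted 3 months, to 15 months. The paper on these mice gives a younger start and, in one place, a shorter treatment. In hTau.P301S mice a human tau transgene with the P301S change is driven in neurons by the Thy1 promoter. WT mice carry no transgene, and no source used here gives the sex of the mice. The comparisons ask whether the transgene, NR or their combination changed the transcripts that mark each subfield.

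The hippocampus is built as a relay. Granule cells of the dentate gyrus receive cortical input and send mossy fibres to CA3, whose pyramidal cells project to CA1, and CA2 is a narrow field between CA3 and CA1 known for its part in social memory. Each field keeps a set of genes that its neighbours express weakly, so a piece of tissue with more of one field carries more of its transcripts. Tau pathology in P301S mice is known to reach the hippocampus. In bulk tissue, fewer cells of a type and less RNA per cell cannot be told apart.

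Among the dentate members, Prox1 encodes the homeobox factor that specifies granule cells, C1ql2 a secreted complement-like protein of mossy fibre synapses, Dsp the junction protein desmoplakin and Calb1 the calcium buffer calbindin. In CA1, Wfs1 encodes wolframin of the endoplasmic reticulum, Fibcd1 a membrane receptor that binds acetylated sugars and Pou3f1 a POU-domain transcription factor. In CA2, Pcp4 encodes a calmodulin-binding peptide, Rgs14 a regulator of G protein signalling that restrains plasticity at CA2 synapses and Amigo2 a cell adhesion protein. Calb1, Wfs1 and Pcp4 are also known from medium spiny neurons of the striatum, and Calb1 from CA1 and interneurons.

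In mm10 the dentate genes lie on chromosome 1 (Prox1, 190118035 to 190170714, and C1ql2, 120340582 to 120343174), chromosome 13 (Dsp, 38151294 to 38198577) and chromosome 4 (Calb1, 15881264 to 15908064). The CA1 genes lie on chromosome 5 (Wfs1, 36966104 to 36989205), chromosome 2 (Fibcd1, 31813290 to 31846005) and chromosome 4 (Pou3f1, 124656807 to 124660655). The CA2 genes lie on chromosome 16 (Pcp4, 96467606 to 96525793), chromosome 13 (Rgs14, 55369732 to 55384687) and chromosome 15 (Amigo2, 97244125 to 97247287). All are protein-coding. The strand setting of the counting is not given in the sources used here, so reads of opposite-strand neighbours cannot be told apart from them. Of these neighbours, Prox1os, antisense to Prox1, had 28 to 182 counts a mouse, beside 244 to 3121 for Prox1. Pced1b, which overlaps Amigo2, had 55 to 139, beside 371 to 829 for Amigo2. Gm28172 at Prox1, Gm10129 at Dsp and Gm2164 at Pou3f1 had at most 18, 7 and 64 counts.

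Promoters are shown for 4 members that were low together in certain libraries described below: Dsp, Prox1 and C1ql2 of the dentate gyrus and Fibcd1 of CA1. Each is the 250 bases before a start site in RefSeq on GRCm38.p6, read 5′ to 3′ on the gene's own strand. Dsp is from chr13:38151044-38151293 on the plus strand, Prox1 (its first listed start) from chr1:190170828-190171077 on the minus strand, C1ql2 from chr1:120340332-120340581 on the plus strand and Fibcd1 from chr2:31846006-31846255 on the minus strand. The Prox1 start lies before the gene as placed above, which ends at 190170714. For Prox1 alone of the 4, the bases after the start were not found near the beginning of a GENCODE M21 transcript of the gene. Capitals mark 4 motifs searched on both strands: the NeuroD-type E-box CAGATG, the E-box CAGCTG, the GC box GGGCGG and the TATA box TATAAA.
Dsp: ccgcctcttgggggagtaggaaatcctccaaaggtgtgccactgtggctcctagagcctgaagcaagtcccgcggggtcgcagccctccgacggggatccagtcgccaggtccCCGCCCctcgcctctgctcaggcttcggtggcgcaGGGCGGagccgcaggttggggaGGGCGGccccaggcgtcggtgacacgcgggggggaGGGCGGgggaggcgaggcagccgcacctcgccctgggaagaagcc
Prox1: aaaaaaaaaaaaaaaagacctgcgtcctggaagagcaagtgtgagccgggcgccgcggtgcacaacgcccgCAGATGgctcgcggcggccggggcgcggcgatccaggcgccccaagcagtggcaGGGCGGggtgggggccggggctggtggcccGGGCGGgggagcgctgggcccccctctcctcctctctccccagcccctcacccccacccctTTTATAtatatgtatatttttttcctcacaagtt
C1ql2: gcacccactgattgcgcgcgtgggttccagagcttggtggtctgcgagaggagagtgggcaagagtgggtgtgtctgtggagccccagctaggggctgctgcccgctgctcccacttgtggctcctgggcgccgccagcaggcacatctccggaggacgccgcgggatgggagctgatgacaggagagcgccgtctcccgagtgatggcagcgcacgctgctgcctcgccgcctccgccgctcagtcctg
Fibcd1: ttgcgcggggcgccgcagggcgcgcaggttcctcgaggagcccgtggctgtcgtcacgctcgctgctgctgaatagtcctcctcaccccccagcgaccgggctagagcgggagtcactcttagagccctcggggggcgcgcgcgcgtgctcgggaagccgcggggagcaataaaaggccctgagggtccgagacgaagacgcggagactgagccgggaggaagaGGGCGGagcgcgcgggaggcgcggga
The GC box occurred 4 times at Dsp, 2 times at Prox1, 1 time at Fibcd1 and not at C1ql2, and 32.7% of 32851 promoters of the same length held it. At the start shown, Prox1 also held 1 NeuroD-type E-box, found in 14.4% of promoters, and 1 TATA box letter match, found in 12.4%. The second listed start of Prox1, which is not shown, held 1 GC box and neither of these motifs. CAGCTG, found in 13% of promoters, was in none of the 4 promoters shown. Of all 10 members, 7 had an entry in the promoter table: Prox1, C1ql2, Dsp, Wfs1, Fibcd1, Pcp4 and Amigo2.

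Libraries were of similar depth, with 16490261 to 21915362 counts, but 3 stood apart. A set of 9 genes of striatal medium spiny neurons (among them Drd1, Adora2a and Pde10a) summed to 1823 CPM (counts scaled to the depth of the library) in WT replicate 2 and to 746 CPM in hTau.P301S + NR replicate 4. WT + NR replicate 3 came next with 388 CPM, under the limit of 410 CPM that 2 times the median sets, and the other 13 mice had between 152 and 260 CPM. When each of the 9 genes was left out in turn, WT + NR replicate 3 lay above the limit in 1 of 9 cases (without Pde10a) and the first 2 libraries in 9 of 9, so the placing of WT + NR replicate 3 depends on the genes used. By group the sum ran from 152 to 1823 CPM in WT, from 173 to 388 CPM under WT + NR, from 171 to 236 CPM in tau mice on vehicle and from 188 to 746 CPM in tau mice given NR. Choroid plexus genes, led by Ttr, summed to between 22.7 and 9988 CPM and were high in some mice of every group. In hTau.P301S replicate 1, mitochondrial genes took 14.4% of counts, against 4.48 to 7.07% in the other 15 mice. It had 19467 genes detected, against 22199 to 24918. TMM, the scaling of all CPM here, gave it an effective depth of 11699531, beside its 17096764 counts. The other 15 mice had effective depths of 17721927 to 22313310. The rule of 2 times the median over all mice that separates the 3 libraries was chosen after the values were seen. Values without these libraries stand beside many of the results below. As a check of the labels, Thy1 was between 424 and 633 CPM in the 8 WT and WT + NR mice and between 667 and 1640 CPM in the 8 hTau.P301S and hTau.P301S + NR mice, so these groups did not overlap.

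CPM here are scaled by TMM over all 16 mice. Compared per kilobase of the listed gene length, the median level over 16 mice was 42.7 CPM per kilobase for C1ql2, 33.9 for Wfs1, 31.1 for Fibcd1 and 24.6 for Calb1. It was 22.5 CPM per kilobase for Rgs14, 22.1 for Pou3f1, 11.3 for Pcp4, 11.1 for Amigo2, 10.9 for Prox1 and 4.32 for Dsp. The ranges of neighbours in this order overlap widely, for example 5.27 to 121 CPM per kilobase for C1ql2 and 17.8 to 75.9 for Wfs1. Most members varied more between mice than a typical gene. Over 16 mice the coefficient of variation was 124% for Pcp4, 73.1% for Dsp and 58.1% for C1ql2, and between 37.2% and 51.1% for Prox1, Wfs1, Fibcd1, Pou3f1 and Rgs14. Among 12133 genes with a mean of at least 5 CPM the median was 24.5%, and only Calb1 with 18.4% and Amigo2 with 23.1% stayed below it. All these coefficients include the 3 libraries that stood apart. Pcp4 was 103 CPM in hTau.P301S replicate 1 and between 4.20 and 34.0 CPM in the other mice.

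**Figure D1:**
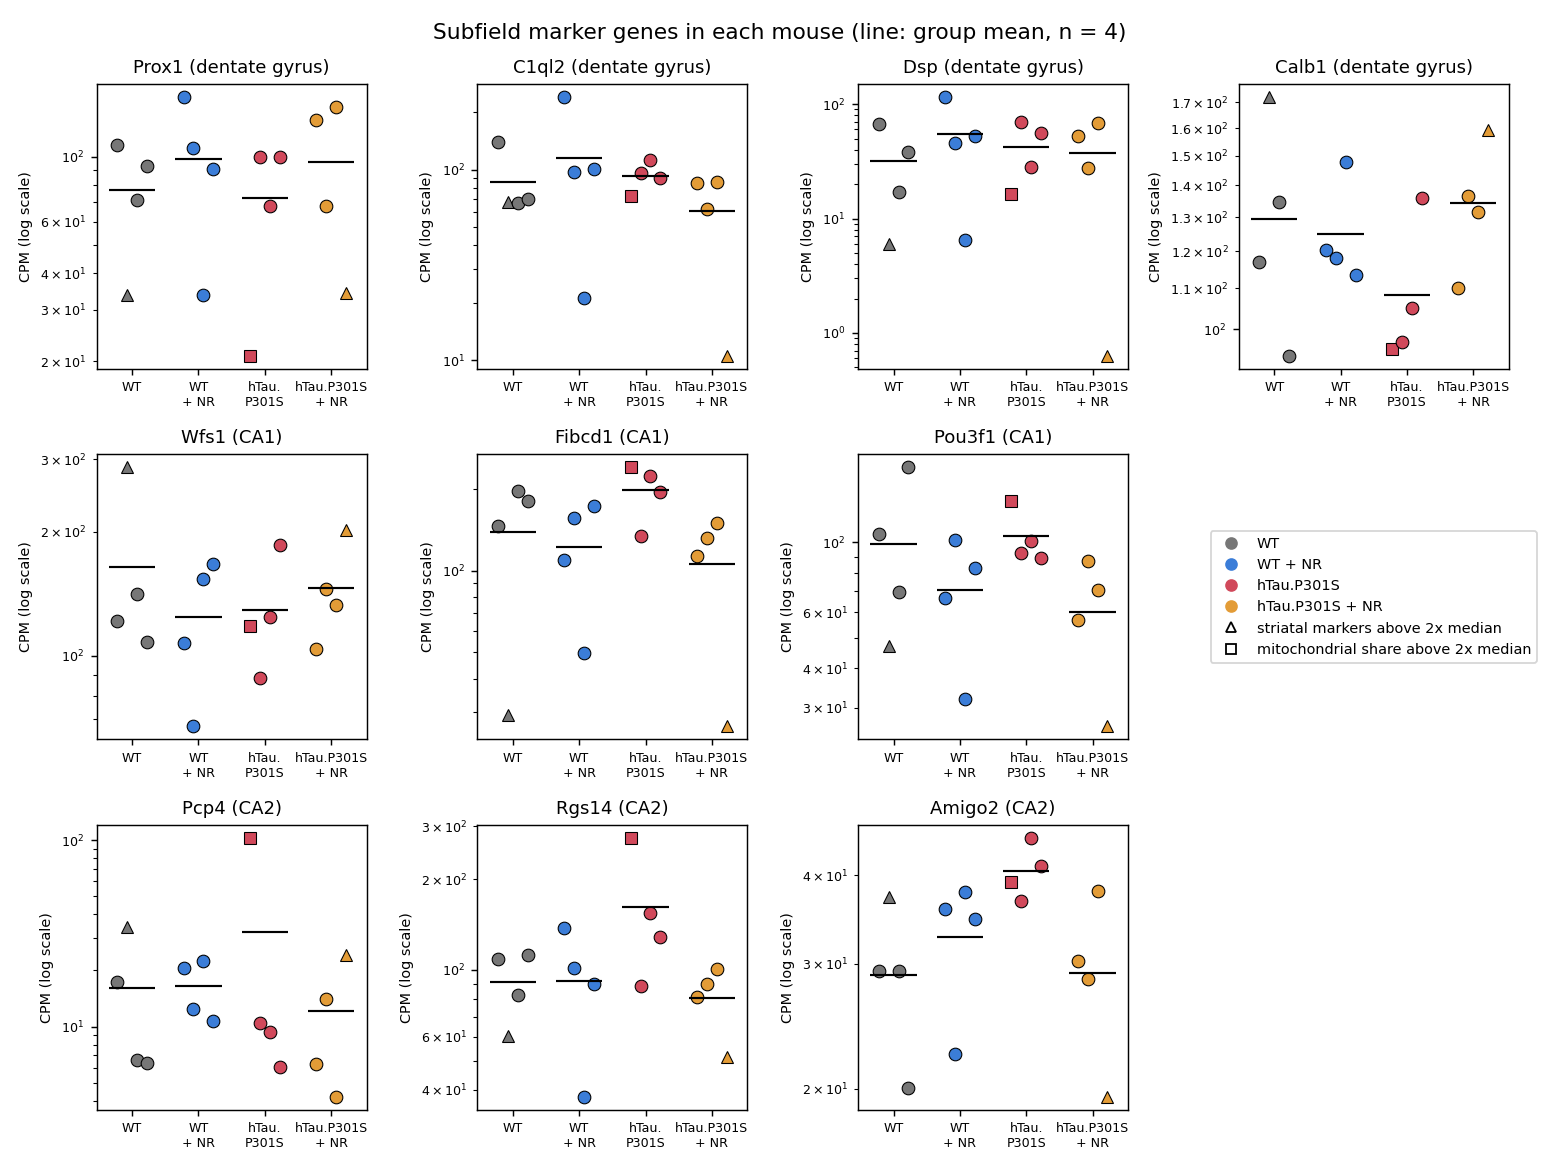
CPM of each member (log axis) in each mouse, by group, with the group mean as a line; triangles are the 2 libraries with high striatal markers and the square is the library with a high mitochondrial share. Both triangles are among the 3 lowest mice for Dsp, Fibcd1, Pou3f1 and Rgs14 and are the 2 highest for Calb1, and the square lies far above all other mice for Pcp4, at 103 CPM.

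Dsp spanned the widest range of the dentate members. It was 66.4, 5.94, 17.1 and 38.1 CPM in WT mice 1 to 4 and 116, 45.3, 6.52 and 52.4 CPM in WT + NR mice. It was 16.4, 69.4, 28.1 and 55.4 CPM in hTau.P301S mice and 53.0, 27.9, 68.2 and 0.632 CPM in hTau.P301S + NR mice. The lowest value rests on 13 counts. Its 3 lowest mice were both libraries with high striatal markers and WT + NR replicate 3, and all 4 groups overlapped.

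Prox1 followed the same mice. It was 110, 33.7, 71.0 and 92.8 CPM in WT and 160, 107, 33.8 and 90.6 CPM in WT + NR. It was 20.9, 99.6, 67.6 and 99.9 CPM in hTau.P301S and 133, 67.5, 148 and 34.1 CPM in hTau.P301S + NR. Its 4 lowest mice were the 3 libraries that stood apart and WT + NR replicate 3. Leaving out the 3 libraries, Prox1 and Dsp rose and fell together over the other 13 mice (Pearson's r = 0.936, permutation p = 2e-05, Benjamini-Hochberg adjusted p = 0.00090 over 45 pairs of members). Spearman's rho was 0.846 (permutation p = 0.00051, adjusted p = 0.0229). Without the 2 mice farthest from the median of Prox1, r was 0.804. Without WT + NR replicate 3 as well, r was 0.859 (permutation p = 0.00038, adjusted p = 0.0171) and rho was 0.804 (permutation p = 0.00252, adjusted p = 0.113), so the rank correlation then missed the adjustment. Of the 45 pairs, 4 passed the adjustment of r over 13 mice, and Prox1 with Dsp was the 1 pair that did so over the 12 mice without WT + NR replicate 3. Prox1 and Dsp are also the longest of the 10 members, at 8390 and 9659 bases, and the part of length in the relation was not tested.

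**Figure D2:**
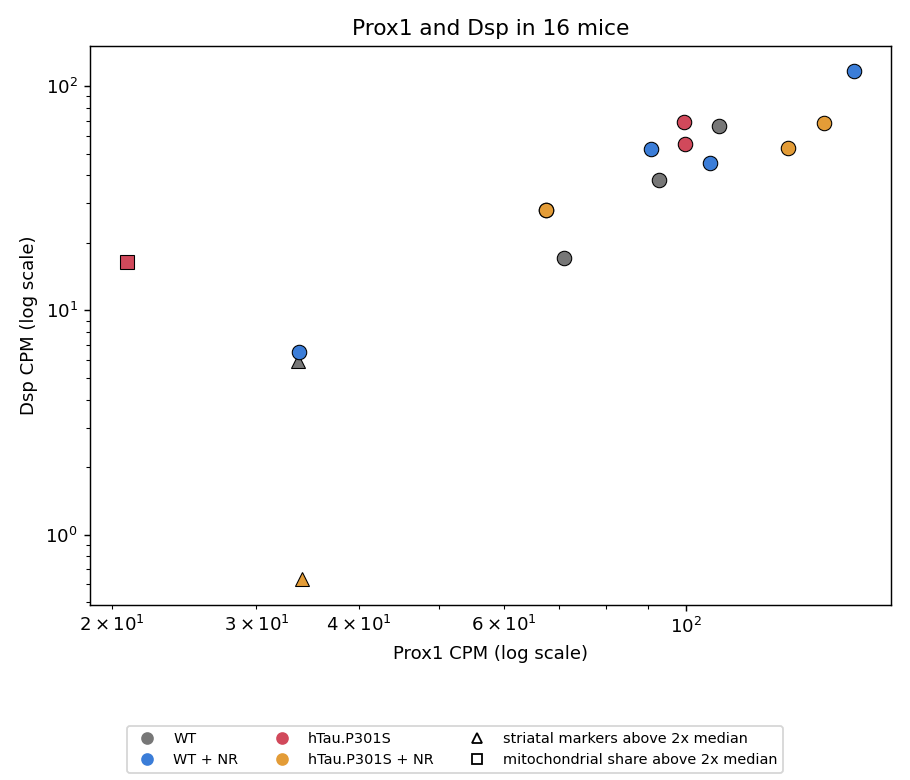
Dsp against Prox1 in CPM (both log axes), 1 point per mouse, coloured by group. The 13 circles, mice that did not stand apart, rise together with r = 0.936 on the log2 scale, or 0.859 without WT + NR replicate 3, and the triangles, the square and that mouse lie below 35 CPM of Prox1.

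C1ql2 was 140, 67.3, 67.0 and 70.4 CPM in WT and 242, 96.9, 21.3 and 101 CPM in WT + NR. It was 72.4, 96.0, 112 and 90.8 CPM in hTau.P301S and 84.7, 62.1, 86.1 and 10.5 CPM in hTau.P301S + NR. The highest mouse, WT + NR replicate 1, was also the highest for Prox1 and Dsp. Over the 13 mice its r with Dsp was 0.881 (permutation p = 0.00028, adjusted p = 0.0063), and it was 0.558 without the 2 farthest mice. Its r with Prox1 was 0.808 (permutation p = 0.00237, adjusted p = 0.0299) and 0.288 without the 2 farthest. With Rgs14 of CA2 it was 0.838 (permutation p = 0.00266, adjusted p = 0.0299) and 0.423 without them. The rank correlations of these 3 pairs, with rho of 0.648, 0.527 and 0.676, had adjusted permutation p values of 0.295, 0.366 and 0.295. Without WT + NR replicate 3, which had the second lowest C1ql2 of all mice, r was 0.721, 0.559 and 0.570, with adjusted permutation p values of 0.206, 0.359 and 0.359, so these 3 relations passed the adjustment only with that mouse.

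Calb1 went the other way. WT mice had 117, 172, 135 and 94.0 CPM, and WT + NR mice 120, 118, 148 and 114 CPM. Tau mice without NR had 95.5, 97.1, 105 and 136 CPM, and those with NR 110, 137, 132 and 159 CPM. The 3 highest of all 16 mice were both libraries with high striatal markers and WT + NR replicate 3. Over the 13 mice its r with Prox1 was -0.35, and with Dsp -0.44, with adjusted permutation p values of 0.414 and 0.322. Without WT + NR replicate 3 these were -0.012 and -0.15.

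In CA1, Fibcd1 was 146, 29.4, 196 and 181 CPM in WT and 109, 156, 49.7 and 174 CPM in WT + NR. It was 241, 134, 222 and 195 CPM in hTau.P301S and 113, 132, 150 and 26.7 CPM in hTau.P301S + NR. Its 3 lowest mice were again both libraries with high striatal markers and WT + NR replicate 3, each below 50 CPM, with no other mouse under 109 CPM. For Pou3f1, WT mice had 106, 47.2, 69.6 and 172 CPM and WT + NR mice 66.6, 101, 31.9 and 83.1 CPM. Its hTau.P301S values were 135, 92.2, 101 and 88.9 CPM, beside 57.0, 86.9, 70.6 and 26.2 CPM under hTau.P301S + NR. The highest hTau.P301S + NR mouse, at 86.9 CPM, lay just under the lowest hTau.P301S mouse, at 88.9 CPM. Wfs1 ranged from 67.4 CPM in WT + NR replicate 2 to 287 CPM in WT replicate 2, the library with the most striatal transcripts.

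In CA2, Rgs14 was 109, 60.2, 82.8 and 112 CPM in WT and 137, 102, 37.9 and 90.1 CPM in WT + NR. It was 275, 88.4, 154 and 129 CPM in hTau.P301S and 81.5, 89.7, 101 and 51.3 CPM in hTau.P301S + NR. Of the hTau.P301S mice, 3 of 4 were above every WT mouse and 1 was not. For Amigo2, WT mice had 29.3, 37.2, 29.3 and 20.1 CPM and WT + NR mice 35.8, 22.4, 37.9 and 34.7 CPM. Its hTau.P301S values were 39.1, 36.8, 45.2 and 41.2 CPM, beside 30.3, 28.5, 38.0 and 19.5 CPM under hTau.P301S + NR. The groups hTau.P301S and WT overlapped through WT replicate 2 alone. Pcp4 was low, between 4.20 and 34.0 CPM, in all mice but hTau.P301S replicate 1, where it was 103 CPM.

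Each library with high striatal markers was set beside the other 3 mice of its group, as a description with no test. In both, Prox1, Dsp, Fibcd1, Pou3f1 and Rgs14 were the lowest of their group and Calb1, Wfs1 and Pcp4 the highest. C1ql2 was lowest in 1 of the 2, and Amigo2 highest in 1 and lowest in 1. In hTau.P301S + NR replicate 4 Dsp was at 0.0127 of the mean of the other 3 mice, C1ql2 at 0.136 and Fibcd1 at 0.203, while Pcp4 was at 2.96 times that mean. Members of 1 subfield thus moved in opposite directions in the same libraries. A set of 5 genes of forebrain excitatory neurons summed to 2331 and 3557 CPM in these 2 libraries, to 2081 CPM in WT + NR replicate 3 and to 3834 to 7775 CPM in the other 13. The sum of 9 further dentate markers was 301.03 and 301.25 CPM in these 2 libraries, against 170 to 694 CPM in the other 14 mice. The part of tissue composition in the group results was not tested.

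**Figure D3:**
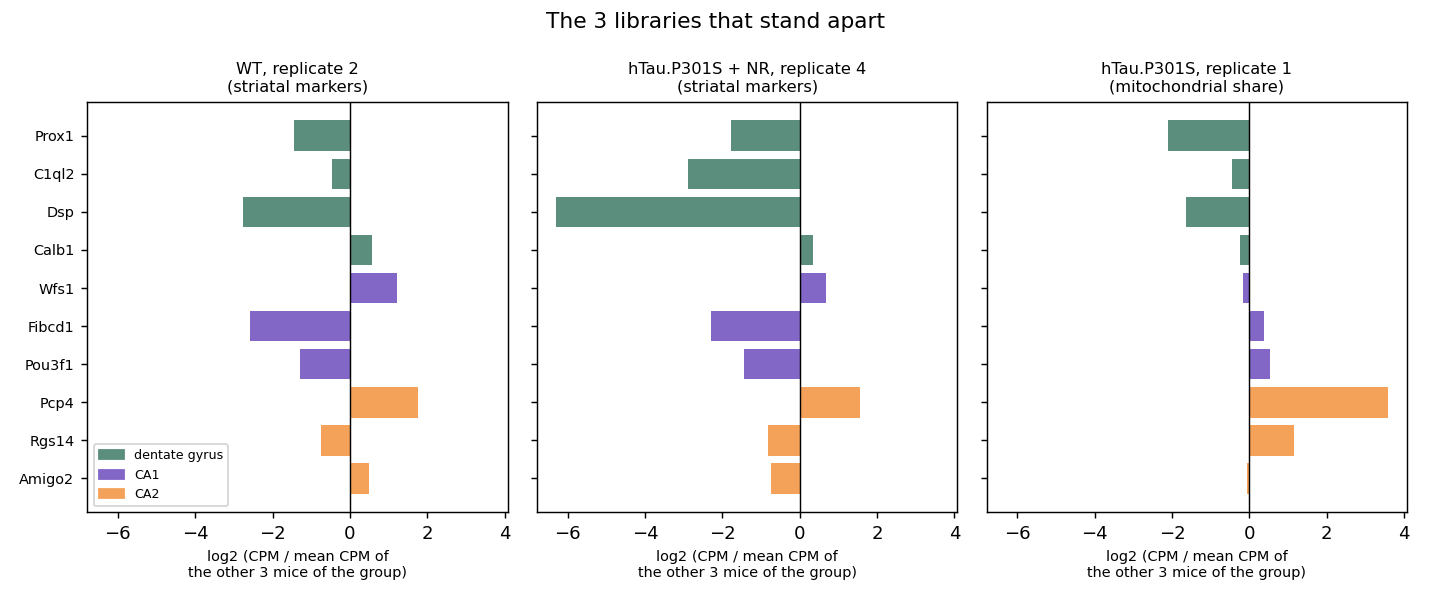
Bars give, for each of the 3 libraries that stand apart, the log2 ratio of a member's CPM to the mean of the other 3 mice of its group, coloured by subfield. In the 2 striatal-marker libraries Prox1, Dsp, Fibcd1, Pou3f1 and Rgs14 point down and Calb1, Wfs1 and Pcp4 up, and in hTau.P301S replicate 1 the Pcp4 bar reaches a ratio of 12.0.

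**Figure D4:**
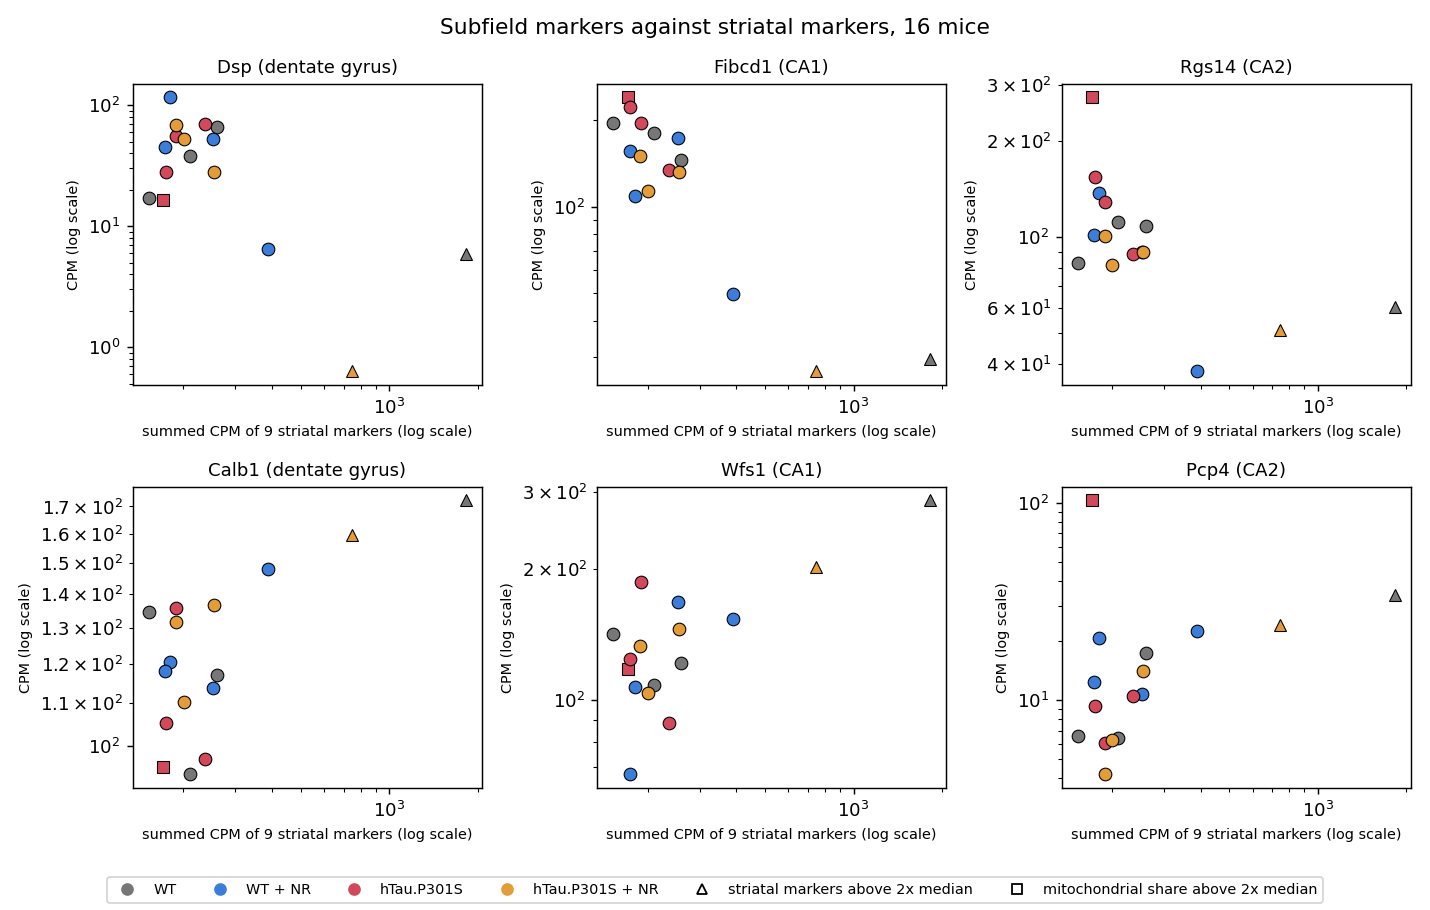
CPM of 6 members (log axis) against the summed CPM of 9 striatal markers (log axis), 1 point per mouse; triangles are the 2 libraries at 746 and 1823 CPM. Dsp and Fibcd1 are lowest in the triangles and Calb1 is highest there.

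The library with the high mitochondrial share showed another pattern. In hTau.P301S replicate 1 Prox1 was 0.234 and Dsp 0.322 times the mean of the other 3 hTau.P301S mice, whereas Rgs14 was 2.22 times and Pcp4 12.0 times that mean. Pcp4, at 1026 bases, is the shortest member. Over the 10 members, Spearman's rho between gene length and this log2 ratio was -0.54, given as a description of 10 genes within 1 library. The part of RNA quality in the group results was not tested.

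The mean log2 CPM of each subfield's members gave no separation of the groups. For the dentate gyrus it was 5.99 ± 0.59 in WT, 6.24 ± 1.001 in WT + NR, 6.10 ± 0.57 in tau mice without NR and 5.76 ± 1.31 in tau mice with NR (SD, n = 4). For CA1 it was 6.84 ± 0.44, 6.56 ± 0.46, 7.08 ± 0.27 and 6.46 ± 0.54 in the same order. For CA2 it was 4.99 ± 0.41, 5.13 ± 0.28, 5.51 ± 0.80 and 4.81 ± 0.19. The largest CA2 mean, in hTau.P301S, includes 6.69 in replicate 1, with 4.999 to 5.34 in its other 3 mice. Dentate minus CA1 ranged from -1.99 in hTau.P301S replicate 1 to 0.73 in WT + NR replicate 1, and all groups overlapped.

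The genotype comparison without NR asked whether tau changed the subfield markers. None of the 10 was differentially expressed between hTau.P301S and WT by edgeR's quasi-likelihood test (adjusted p under 0.05 and absolute log2 fold change above 0.5), a call made for 1 of 16375 genes, 0.00611%. At an unadjusted p under 0.05 there were 2 members, against 7.14% of all genes, and no member lacked overlap between the groups, against 6.24% of genes. Both were CA2 genes and higher in hTau.P301S. Of 9 further CA2 genes tested there, 5 were higher and 4 lower, with a median log2 fold change of 0.054. Without WT replicate 2, 8 of 10 were higher and 2 lower, with a median of 0.22. Without hTau.P301S replicate 1 as well, 7 of 9 were higher and 2 lower, with a median of 0.23. Rgs14 differed by a log2 fold change of 0.84 ± 0.37 (SE) and Amigo2 by 0.49 ± 0.21 (SE), both with an edgeR adjusted p of 0.598. Without the 3 libraries that stood apart, Rgs14 was at 0.28 ± 0.20 (SE, edgeR adjusted p = 0.529) and Amigo2 at 0.63 ± 0.17 (SE, edgeR adjusted p = 0.141). The exact permutation p of Amigo2 on log2 CPM was 0.0571 with all 8 mice, where 4 against 4 can give no less than 0.0286.

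The other 8 members had unadjusted p values from 0.293 to 0.855 in edgeR. Pcp4 had the largest log2 fold change, 1.02 ± 0.98 (SE), which became -0.91 without hTau.P301S replicate 1 alone and -0.24 without all 3 libraries. Fibcd1 was at 0.53 ± 0.50, Dsp at 0.41 ± 0.69, C1ql2 at 0.11 ± 0.28 and Pou3f1 at 0.08 ± 0.38 (SE). Wfs1 was at -0.35 ± 0.36, Calb1 at -0.26 ± 0.23 and Prox1 at -0.09 ± 0.50 (SE). Without WT replicate 2, the striatal-marker library of this comparison, Fibcd1 was at 0.16, Dsp at 0.056, Calb1 at -0.10 and Prox1 at -0.35, and without hTau.P301S replicate 1 as well they were at 0.060, 0.32, -0.044 and -0.046. Dsp also came to 0.049 without hTau.P301S replicate 2 alone. The median of the 10 was 0.26, beside 0.02 over all genes, and became 0.051 without WT replicate 2 and 0.074 without both libraries.

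**Figure D5:**
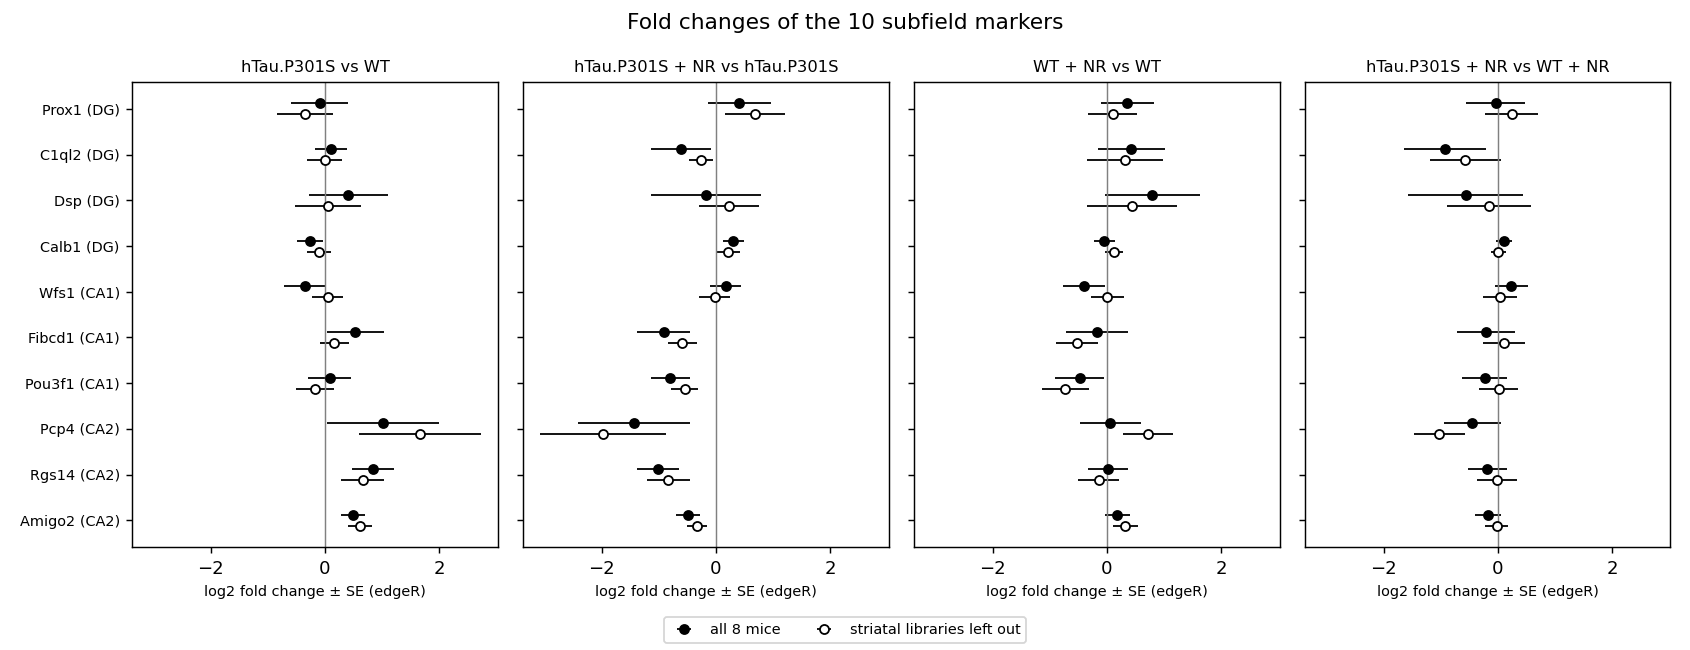
Log2 fold change ± SE from edgeR for the 10 members in 4 comparisons, with all 8 mice (filled) and without the 2 libraries high in striatal markers (open). No point was called; Rgs14 and Amigo2 lie right of 0 in hTau.P301S vs WT and left of it in hTau.P301S + NR vs hTau.P301S.

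The comparison of hTau.P301S + NR with hTau.P301S asked whether NR changed them in tau mice. These results share the hTau.P301S mice with the comparison above, so opposite signs are not independent. Again 0 of 10 members were called, with 1 call among 16386 genes, 0.0061%. There were 3 members with an unadjusted p under 0.05, against 12.9% of all genes, all lower with NR and all with an edgeR adjusted p of 0.367. Rgs14 had a log2 fold change of -1.01 ± 0.37, Pou3f1 of -0.80 ± 0.34 and Amigo2 of -0.49 ± 0.21 (SE). Pou3f1 was the 1 member without overlap between the groups, a state of 11.9% of genes, with an exact permutation p of 0.0286, the smallest that 4 against 4 allows. When counts were instead scaled to genes of all neurons, Pou3f1 overlapped, and the 2 members without overlap were Fibcd1, lower with NR, and Calb1, higher. The share of all genes without overlap was not computed under that scaling.

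Among the rest, Pcp4 was at -1.43 ± 0.98, Fibcd1 at -0.92 ± 0.47, C1ql2 at -0.61 ± 0.53 and Dsp at -0.18 ± 0.96 on the log2 scale (SE). Prox1 was at 0.41 ± 0.56, Calb1 at 0.31 ± 0.18 and Wfs1 at 0.17 ± 0.28 (SE). Without hTau.P301S + NR replicate 4, the striatal-marker library here, Fibcd1 was at -0.59, C1ql2 at -0.26, Dsp at 0.23 and Prox1 at 0.69. The median of the 10 was -0.55, beside -0.03 over all genes, and became -0.29 without that library and -0.21 without hTau.P301S replicate 1 as well. Without the 3 libraries that stood apart, 5 members had an unadjusted p under 0.05, against 17.9% of all genes. Their log2 fold changes were -0.48 for Fibcd1, -0.45 for Rgs14, -0.39 for Pou3f1, -0.35 for C1ql2 and -0.34 for Amigo2. Their edgeR adjusted p values ran from 0.232 to 0.260. Pcp4 was then at -0.07 ± 0.41 (SE).

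NR in WT mice gave no member with an unadjusted p under 0.05. No gene of 16714 was called by edgeR (0%), 132 genes (0.79%) had an unadjusted p under 0.05, and DESeq2 called 3 genes, none of them a member. Log2 fold changes ran from -0.48 ± 0.44 (SE) for Pou3f1 to 0.80 ± 0.84 (SE) for Dsp, and groups overlapped for all 10, as for all but 0.754% of genes. Without WT replicate 2 they ran from -0.73 for Pou3f1 to 0.72 for Pcp4, with Dsp at 0.44. Leaving out 1 mouse at a time, Dsp ran from 0.10 (without WT + NR replicate 1) to 1.44 (without WT replicate 1), and Pou3f1 from -0.73 to -0.066 (without WT replicate 4).

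Between hTau.P301S + NR and WT + NR, 9 of 16671 genes (0.054%) were called and none was a member. No member had an unadjusted p under 0.05, against 6.09% of genes, and none lacked overlap, against 3.73%. C1ql2 had the lowest value, with a log2 fold change of -0.92 ± 0.72 (SE, edgeR adjusted p = 0.806). Without WT + NR replicate 3 it was at -1.27 ± 0.60 (SE, edgeR adjusted p = 0.470) and was the 1 member without overlap, with no share of all genes computed there. Without the libraries high in striatal markers it was at -0.57 ± 0.62 (SE, edgeR adjusted p = 0.838) and overlapped. Pcp4 was then the 1 member at an unadjusted p under 0.05, against 7.13% of all genes. It had a log2 fold change of -1.02 ± 0.44 (SE, edgeR adjusted p = 0.698), and its groups overlapped.

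Over both treatments together, the 8 tau mice and the 8 WT mice gave 28 calls among 17555 genes (0.159%), Thy1 among them, and no member. No member had an unadjusted p under 0.05, against 9.06% of genes. Rgs14 had the highest log2 fold change, 0.32 ± 0.27, and C1ql2 the lowest, -0.41 ± 0.42 (SE), and without the 3 libraries that stood apart they were at 0.13 and -0.24. Amigo2 was at 0.16 ± 0.16 (SE, edgeR adjusted p = 0.774). Without the 2 striatal-marker libraries it was the 1 member at an unadjusted p under 0.05, against 9.39% of all genes. Its log2 fold change was then 0.31 ± 0.14 (SE, edgeR adjusted p = 0.525).

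The interaction asked whether the response to NR differed by genotype. edgeR called no gene of 17555 (0%), 1390 genes (7.92%) had an unadjusted p under 0.05, and DESeq2 called 17 genes. No member was among any of these. Amigo2 came nearest, with a difference of -0.66 ± 0.31 on the log2 scale (SE, edgeR adjusted p = 0.558), and Rgs14 followed at -1.01 ± 0.54 (SE, edgeR adjusted p = 0.558), or at -0.30 without the 3 libraries that stood apart. Pcp4 had the largest difference, -1.45 ± 1.18 (SE), which became 0.47 without hTau.P301S replicate 1 and -2.71 ± 1.25 (SE, edgeR adjusted p = 0.566) without the 2 striatal-marker libraries. In the latter setting Pcp4 and Amigo2 had an unadjusted p under 0.05, against 7.75% of all genes. Without all 3 libraries that stood apart Amigo2 alone did, against 10.2% of all genes, at -0.66 ± 0.28 (SE, edgeR adjusted p = 0.458).

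Further markers of the same fields, and markers of CA3, a field without a member, were read beside the members. Of 32 further genes for dentate gyrus, CA1, CA2 and CA3, 31 were tested in hTau.P301S vs WT, with 5 at an unadjusted p under 0.05, all higher, and none called, where 7.14% of all genes were at that level. Of these 5, 3 were CA3 genes, 1 a dentate gene, 1 a CA1 gene and 0 were CA2 genes. In hTau.P301S + NR vs hTau.P301S, 32 were tested, 1 higher and 5 lower at that level, against 12.9% of all genes, and none was called. The 1 higher was a CA2 gene, and of the 5 lower 2 were CA3 genes, 2 CA2 genes and 1 a CA1 gene. Without the striatal-marker libraries these counts were 4 of 32, all higher, in the first comparison (7% of all genes) and 4 of 32, all lower, in the second (6.96%). In the first, 3 of the 4 were CA3 genes and 1 a CA2 gene. In the second, 2 of the 4 were CA3 genes, 1 a CA1 gene and 1 a CA2 gene. Without all 3 libraries that stood apart, 2 were higher and 1 lower of 31 in the first comparison, against 16.3% of all genes. In the second, 2 were higher and 7 lower of 32, against 17.9% of all genes. Median log2 fold changes in the first and second comparison were 0.054 and -0.11 for the further CA2 genes. They were -0.27 and -0.17 for the further CA1 genes and -0.024 and 0.20 for those of the dentate gyrus. Without the striatal-marker libraries the medians were 0.22 and -0.14 for CA2. For CA1 they were then -0.46 and -0.23, and for the dentate gyrus -0.061 and 0.41. CA3 had a median log2 fold change of 0.63 in the first comparison and -0.66 in the second over its 8 genes. Without the striatal-marker libraries its medians were 0.42 and -0.48. Its Homer3, a postsynaptic scaffold protein, did not overlap in either: 1.001 ± 0.24 (SE, edgeR adjusted p = 0.594) and -1.26 ± 0.42 (SE, edgeR adjusted p = 0.367). NR in WT mice gave none of 31 tested, and hTau.P301S + NR vs WT + NR 1 of 31, which was lower.

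Single genes of the other lists passed the same descriptive rule, an unadjusted p under 0.05 with no overlap between groups. Dcx, which marks newborn neurons, was at -0.83 ± 0.30 in hTau.P301S vs WT and 1.03 ± 0.24 with NR in hTau.P301S (SE, edgeR adjusted p = 0.598 and 0.323). The cortical layer gene Rorb was at -0.84 ± 0.25 and 1.01 ± 0.26 (SE) in these comparisons, and Scnn1a at -1.41 ± 0.52 in the first. With NR in hTau.P301S, the CA1 gene Spink8 was at -2.87 ± 1.04 (SE), the CA2-list gene Stard5 at -0.66 ± 0.20 and the striatal gene Six3 at 3.56 ± 0.87 (SE). In hTau.P301S + NR vs WT + NR, Nmb of mossy cells was at -0.95 ± 0.28 and Scnn1a at -1.19 ± 0.27 (SE). None of them was called. Spink8 was 180, 16.8, 23.5 and 18.1 CPM in hTau.P301S and 7.75, 12.2, 12.4 and 0.777 CPM in hTau.P301S + NR. Its highest and lowest mice were libraries that stood apart, and without them it was at -0.85 ± 0.22 (SE, edgeR adjusted p = 0.122). Striatal markers themselves were at a lower value for 9 of 9 genes in hTau.P301S vs WT, with a median log2 fold change of -2.17, and at a higher value for 9 of 9 with NR in hTau.P301S, with a median of 1.21. Without WT replicate 2 the first was 6 of 9 lower, with a median of -0.29, and without hTau.P301S + NR replicate 4 the second was 7 of 9 higher, with a median of 0.46.

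Genes were ranked by Pearson's r of log2 CPM less the group mean with the mean of a subfield's members, as a description. Those most like each such mean were sought among 12123 genes. For the dentate gyrus these were Ippk (r = 0.972), Wipf3 (0.964) and Vwa3b (0.952) over 16 mice. Over the 13 mice left without the libraries that stood apart, r was 0.928, 0.946 and 0.888. For CA1 they were Plpp6 (0.928, then 0.933), Matn2 (0.918, then 0.865) and Rara (0.882, then 0.706). For CA2 they were Mrfap1 (0.971, then 0.935), Pkig (0.968, then 0.948) and Adprhl2 (0.966, then 0.915). The members behind a mean did not all move together. Over the 13 mice, r of log2 CPM was -0.28 for Pcp4 with Rgs14, 0.027 for Pcp4 with Amigo2 and 0.040 for Rgs14 with Amigo2. In CA1 it was 0.0068 for Wfs1 with Fibcd1, -0.29 for Wfs1 with Pou3f1 and 0.77 for Fibcd1 with Pou3f1. Likeness to such a mean is thus not likeness to each member.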

How the data were processed

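Hippocampal RNA of 16 mice was sequenced from NEBNext Ultra libraries. After FastQC and Trim Galore, the authors used STAR for alignment to mm10 and RSEM for gene-level counting. They deposited raw counts, which are whole numbers and not normalized. Tool versions and the strand setting are not given in the sources used here. The table also lists another value per gene, its length, as the authors give it.

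Counts were fitted in edgeR 4.0.16 (R 4.3.3) with its default filter, TMM and the quasi-likelihood test, over the 8 mice of each pair of groups, or all 16 for genotype over NR and the interaction. P-values were adjusted over all genes tested by Benjamini-Hochberg. The standard error is the log2 fold change over the root of its F statistic. Log2 CPM used a prior count of 2. Single members were also compared by two-sided exact permutation tests, and correlations used 100000 permutations (scipy). DESeq2 1.42.0 was an alternative, beside other scalings, filters, fits and left-out mice. The scripts were tested on simulated data.

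Total counts were 16490261 to 21915362 per mouse, so that members with under 100 counts in a mouse carry sizeable counting error. The members and all gene lists were chosen with earlier results of these data known. A gene of the striatal list is not reported here and entered no sum. Genes outside the members were named where an unadjusted p under 0.05 came with no overlap between groups, at most 3 per list and comparison, with Thy1 and Mapt as checks of the transgene and 3 most alike genes per subfield. Mapt of the mouse did not separate the groups. Positions are from GENCODE M21 on GRCm38, which mm10 denotes.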

Additional observations from a re-analysis of the deposited data

Results flagged for a closer look

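In 5 of 40 sets of 4 mice, 1 set per member and group, 1 mouse's gap to its nearest neighbour exceeded Dixon's 95% critical value in log2 CPM. Chance flags about 1 in 20. Of the 5, 3 were in libraries with high striatal markers. C1ql2 was 10.5 CPM in hTau.P301S + NR replicate 4, where the other 3 mice had 62.1 to 86.1 CPM. Fibcd1 was 29.4 CPM in WT replicate 2, against 146 to 196 CPM, and 26.7 CPM in hTau.P301S + NR replicate 4, against 113 to 150 CPM. The other 2 were in mice that did not stand apart. C1ql2 was 140 CPM in WT replicate 1, against 67.0 to 70.4 CPM, and Amigo2 was 22.4 CPM in WT + NR replicate 2, against 34.7 to 37.9 CPM.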

How the results depend on the processing

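No member was called in any of the 6 comparisons under any alternative, left-out mice included, and the smallest adjusted p of a member was 0.115. Of 1320 member values under alternatives, 106 changed sign, none with an unadjusted p under 0.05. In hTau.P301S vs WT, scaling to genes of all neurons put C1ql2 at -0.10 and Pou3f1 at -0.056 in log2 fold change, and moved the median of all genes to -0.13. There, leaving out the striatal-marker libraries (a choice made, like the next, after seeing the data) gave C1ql2 -0.0075, Wfs1 0.047 and Pou3f1 -0.17, and leaving out the mitochondrial one too gave Wfs1 0.093, Pou3f1 -0.32 and Pcp4 -0.24. With NR in hTau.P301S, the first set gave Dsp 0.23 and Wfs1 -0.022, and the second Wfs1 -0.060. The cause was not tested. With DESeq2 size factors the 12 subfield means moved by at most 0.0024 on the log2 scale.

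Leaving out 1 mouse at a time, hTau.P301S vs WT ran from -0.35 to 0.21 for Prox1, -0.0099 to 0.41 for C1ql2, -0.59 to 0.047 for Wfs1, -0.17 to 0.48 for Pou3f1 and -0.91 (without hTau.P301S replicate 1) to 1.66 for Pcp4. With NR in hTau.P301S it ran from -0.64 to 0.23 for Dsp, -0.022 to 0.41 for Wfs1 and -1.98 to 0.51 for Pcp4, and the interaction of Pcp4 from -2.12 to 0.47, the upper ends of Pcp4 again without hTau.P301S replicate 1. Members without overlap ranged from 0 to 2 in hTau.P301S vs WT (2 without hTau.P301S replicate 2, 1 without WT replicate 1 or 2), from 1 to 4 with NR in hTau.P301S (4 without hTau.P301S replicate 2, 3 without hTau.P301S + NR replicate 3, 2 without hTau.P301S replicate 1 or 4) and from 0 to 1 in hTau.P301S + NR vs WT + NR (1 without WT + NR replicate 3). With NR in hTau.P301S they were 2 under neuron scaling and 2 without all 3 libraries that stood apart. Without the striatal-marker libraries, and without all 3, they were 1 in hTau.P301S vs WT (Amigo2). The share of all genes without overlap was not computed in these settings, so the counts cannot be read as a result about the members. With 3 against 3 mice the smallest possible exact permutation p is 0.1, against 0.0286 with 4 against 4.

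Genes called depended on the tool: DESeq2 called 116, 243, 3, 56, 155 and 17 genes in the 6 comparisons in the order of the text where edgeR called 1, 1, 0, 9, 28 and 0. DESeq2 with all 4 groups called 492, 245, 3 and 22 in the 4 pairs, and 1 edgeR fit over all groups 36, 2, 0 and 7. Without the 3 libraries edgeR called 23, 2, 0, 8, 82 and 0. Without a filter it called 5, 1, 0, 15, 32 and 0, with at least 10 counts in every mouse 1, 0, 0, 6, 13 and 0. The replicate block gave 3, 0, 0, 4, 36 and 0 calls and no member. Mice with the same number are different animals. In 24 pairs of same-numbered mice the correlation of deviations from the group means ran from -0.60 to 0.56, over 0.1 in 9. These correlations had no common sign, but they cannot tell whether same-numbered mice were handled together, which was not tested. Depth limits Dsp in its lowest mouse, with 13 counts, and Pcp4 more widely. Pcp4 had the lowest median of the members, 11.6 CPM against 41.7 CPM for Dsp, and as few as 75 counts in a mouse.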
